A study of Mus musculus with 14 samples.

Results

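The 41 genes described here encode ionotropic and metabotropic glutamate receptors and proteins of the postsynaptic density, the protein-dense layer under the receptors of excitatory synapses. They were chosen by symbol, with earlier results of these data known, and taken from a table of 46904 mouse genes. They comprise 4 AMPA receptor subunits (*Gria1* to *Gria4*), 7 NMDA receptor subunits (*Grin1*, *Grin2a* to *Grin2d*, *Grin3a*, *Grin3b*), 5 kainate receptor subunits (*Grik1* to *Grik5*), 1 delta receptor subunit (*Grid1*) and 6 metabotropic receptors (*Grm2*, *Grm3*, *Grm4*, *Grm5*, *Grm7*, *Grm8*). The others are 14 scaffold proteins of the Dlg, Dlgap, Shank and Homer families and 4 calcium and calmodulin proteins (*Camk2a*, *Camk2b*, *Nrgn*, *Hpca*). All 41 were found in the table and all 41 were among the 46102 genes tested.

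RNA was sequenced from whole brain hemispheres of 12-week-old mice, 48 h after transient occlusion of the left middle cerebral artery (MCAO) with a filament for 20 min. The groups were contralateral (CL) and ischemic (MCAO) hemispheres of *Cort*+/+ mice, with 3 and 3 libraries, and of *Cort*-/- mice, with 3 and 5 libraries. The paper describes 5 MCAO replicates, but the *Cort*+/+ MCAO libraries here are replicates 2, 3 and 4 only. The *Cort*-/- MCAO group has all 5. Where replicates scattered, the authors kept only those that grouped clearly, but whether this removed the other *Cort*+/+ MCAO replicates is not stated. Such a choice could lower the spread of that group and affect the comparisons that use it. *Cort*-/- mice lack the neuropeptide cortistatin from birth in all cells and were kept on a C57BL/6J background, and the CL hemispheres came from operated animals, so no group is without surgery. Libraries were described as independent biological replicates, but whether hemispheres with the same replicate number came from the same mouse is not stated. Libraries held 25991115 to 43034552 reads on genes, and *Cort* had 64 to 139 reads in the *Cort*+/+ libraries against 0 to 4 in the *Cort*-/- libraries.

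Excitatory synapses in the brain use glutamate. AMPA receptors carry the fast current, NMDA receptors admit calcium when the cell is already depolarised, kainate receptors act on both sides of the synapse, and metabotropic receptors signal through G proteins. Scaffold proteins hold the receptors in place, and calmodulin-dependent kinase, neurogranin (*Nrgn*) and hippocalcin (*Hpca*) handle the calcium signal. Excess glutamate acting on these receptors is a classical route to neuronal injury after arterial occlusion.

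Promoter windows of members that fell together are shown first, to give the sequence context of the genes that the comparisons turn on. RefSeq (build GRCm38.p6) had 300-base windows, from 250 bases before to 50 bases after a gene start, for 28 of the 41 members, with 44 windows in all. The windows printed are those of *Hpca* (chr4:129121254-129121553, minus strand) and *Nrgn* (chr9:37552696-37552995, minus strand), the called members of largest change, of *Grin1* (chr2:25319138-25319437, minus strand), the obligatory NMDA receptor subunit, and of *Gria2* (chr3:80802786-80803085, minus strand), the subunit that limits calcium entry through AMPA receptors. Each is written 5′ to 3′ on the gene's strand, with every match to GGGCGG (a GC box) or GCGGGGGCG (the EGR family motif), on either strand, in capitals. The motifs overlap where they meet.

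Hpca: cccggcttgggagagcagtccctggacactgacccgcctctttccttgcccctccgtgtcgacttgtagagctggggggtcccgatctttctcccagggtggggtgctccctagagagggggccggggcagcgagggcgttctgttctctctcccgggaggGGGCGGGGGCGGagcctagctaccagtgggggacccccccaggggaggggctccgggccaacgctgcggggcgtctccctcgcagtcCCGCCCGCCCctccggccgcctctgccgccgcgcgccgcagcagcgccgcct
Nrgn: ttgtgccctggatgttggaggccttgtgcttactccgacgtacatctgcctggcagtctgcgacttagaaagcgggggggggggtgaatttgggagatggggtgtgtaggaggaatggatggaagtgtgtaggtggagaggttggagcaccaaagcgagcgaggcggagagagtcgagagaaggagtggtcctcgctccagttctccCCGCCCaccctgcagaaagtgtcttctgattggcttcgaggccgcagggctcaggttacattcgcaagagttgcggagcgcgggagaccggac
Grin1: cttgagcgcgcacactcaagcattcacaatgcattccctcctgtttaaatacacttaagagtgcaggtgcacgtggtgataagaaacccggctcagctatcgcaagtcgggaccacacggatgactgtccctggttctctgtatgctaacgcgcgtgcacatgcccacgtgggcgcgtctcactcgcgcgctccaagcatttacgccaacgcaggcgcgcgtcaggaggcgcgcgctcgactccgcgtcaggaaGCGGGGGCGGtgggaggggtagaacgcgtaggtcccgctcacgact
Gria2: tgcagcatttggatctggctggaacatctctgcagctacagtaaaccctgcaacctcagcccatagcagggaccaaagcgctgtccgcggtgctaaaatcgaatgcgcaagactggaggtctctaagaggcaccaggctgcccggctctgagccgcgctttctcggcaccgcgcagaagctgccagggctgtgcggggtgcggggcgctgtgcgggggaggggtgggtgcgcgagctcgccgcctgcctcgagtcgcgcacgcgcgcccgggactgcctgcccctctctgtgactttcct

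RefSeq lists 3 windows for *Hpca*, and the one with the most matches was printed, the others having 1 and 0 matches to GGGCGG. The *Hpca* window shown held 4 matches to GGGCGG and 1 to GCGGGGGCG, and its GC content was 74.0% against a median of 52.7% over all 32851 windows. The *Nrgn* window held 1 GGGCGG, the *Grin1* window 1 of each motif, and the *Gria2* window no match to either. GGGCGG was present in 22 of the 44 member windows (50.0%) and in 35.7% of all windows, and GCGGGGGCG in 4 of 44 (9.09%, in *Grin1*, *Grm3*, *Hpca* and *Shank3*) and in 2.91% of all windows. Of the motifs of other factors that were searched, the CRE palindrome TGACGTCA was in 0 of 44 member windows and 1.79% of all windows, the NRF1 motif in 3 of 44 (*Dlg4*, *Dlgap4*, *Gria2*) and 4.60%, and a central part of the REST motif in 0 of 44 and 0.0365%. These matches describe letters in the windows only.

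After MCAO, the transcripts of glutamate receptors and of the postsynaptic density were lower in the ischemic hemisphere, by moderate amounts and across classes. Over both genotypes, 14 of 41 members fell and 0 rose (limma on log2(RPKM + 0.1), RPKM being reads scaled by gene length and library size, Benjamini-Hochberg adjusted p under 0.05), where 0.902% of all genes tested were called lower and 2.52% higher. The members that fell were *Gria1*, *Gria2*, *Gria3*, *Grin1*, *Grin2a*, *Grik2*, *Grid1*, *Grm5*, *Dlg4*, *Dlgap3*, *Camk2a*, *Camk2b*, *Nrgn* and *Hpca*. Their log2 fold changes ran from −0.16 for *Gria1* to −0.46 for *Hpca*, which are differences of −10.7% and −27.2%. The log2 fold change was below 0 for 38 of 41 members, with a median of −0.17, against 50.0% of all genes tested and a median of 0.00012. Of the genes averaging 0.5 RPKM or more, 57.2% were below 0. At an unadjusted p under 0.05, 25 members were lower and 0 higher, where 6.83% of all genes were lower and 8.02% higher. The members are well expressed genes, and among the 17476 genes that averaged 0.5 RPKM or more 13.8% were lower at that p. At the adjusted threshold, 386 of these 17476 genes were called lower and 965 higher. Tissue of an ischemic hemisphere can hold fewer neurons, less of these RNAs per neuron, or more RNA of other cells, which can lower the RPKM of the rest. These cannot be told apart in whole-hemisphere RNA.

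The count over both genotypes depended on single libraries. It was 5 without *Cort*-/- CL replicate 1 or without *Cort*+/+ MCAO replicate 3, 6 without *Cort*-/- CL replicate 3 or *Cort*+/+ CL replicate 3, 8 without *Cort*+/+ CL replicate 2 or *Cort*+/+ MCAO replicate 2, and 9 without *Cort*-/- CL replicate 2. *Gria3*, *Grid1*, *Camk2a*, *Nrgn* and *Hpca* were called in each of the 14 fits that left out 1 library, whereas *Camk2b* was called in 3 of them. After rescaling to TPM the count was 5, and with the replicate number as a block, which treats same-numbered hemispheres as pairs, it was 0.

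**Figure D1:**
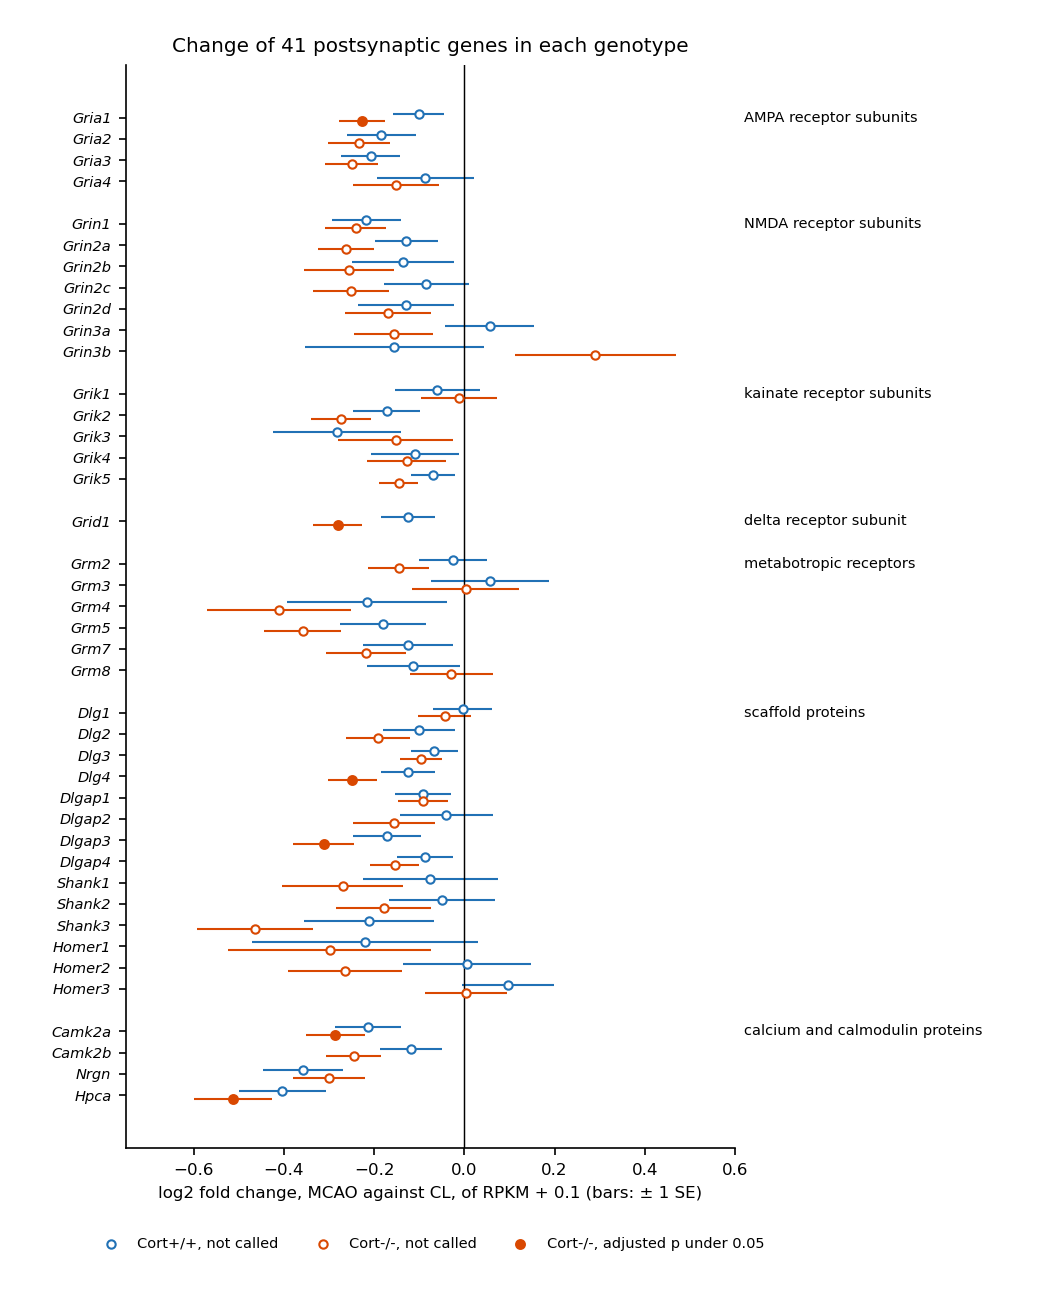
Log2 fold change of each of the 41 genes between MCAO and CL hemispheres (x axis, of RPKM + 0.1) in *Cort*+/+ (blue) and *Cort*-/- (orange) mice, ordered by class, with bars of 1 standard error and filled points where the adjusted p was under 0.05. Points lie left of 0 for 37 genes in blue and 38 in orange, and the filled points are the 6 members called in *Cort*-/- mice.

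In *Cort*-/- mice, 6 of 41 members fell after MCAO (*Gria1*, *Grid1*, *Dlg4*, *Dlgap3*, *Camk2a* and *Hpca*) and 0 rose, where 0.382% of all genes tested were called lower and 1.34% higher. Of the 17476 genes averaging 0.5 RPKM or more, 157 were called lower and 529 higher. The median log2 fold change of the members was −0.23, against 0.00 for all genes, and 22 members were lower and 0 higher at an unadjusted p under 0.05 (6.05% of all genes were lower and 6.66% higher, and 11.5% of those averaging 0.5 RPKM or more were lower). The count was 0 without *Cort*-/- CL replicate 1 or CL replicate 3, and 1 without *Cort*-/- CL replicate 2 or any of *Cort*-/- MCAO replicates 1, 4 and 5. It was 3 without *Cort*+/+ CL replicate 3 or *Cort*+/+ MCAO replicate 2, and 1 when the fit held only the compared groups or after rescaling to TPM. With the replicate number as a block, which treats same-numbered hemispheres as pairs, it was 0. In *Cort*+/+ mice 0 of 41 members were called by limma, where 0.00217% of all genes were called lower and 0.00868% higher. The median was −0.12 against 0.00 for all genes, and 8 members were lower and 0 higher at an unadjusted p under 0.05 (2.99% of all genes were lower and 4.88% higher, and 4.49% of those averaging 0.5 RPKM or more were lower). The count of 8 was 5 without *Cort*+/+ CL replicate 3, without *Cort*+/+ MCAO replicate 3 or after rescaling to TPM, and 2 after centring on neuron markers. Limma voom on recovered reads called 1 member in *Cort*+/+ mice (*Nrgn*), and leaving out *Cort*+/+ CL replicate 2 also gave 1 (*Hpca*). With a different test (edgeR), the authors list *Nrgn* and *Hpca* among the genes lower after MCAO in both genotypes. The count of 0 therefore depends on the test and does not show that no member fell.

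The calls in *Cort*-/- and their absence in *Cort*+/+ mice were not shown to differ. The paper reports lower gene sets for synapses, postsynaptic structures and glutamate receptor activity in *Cort*-/- mice only, from gene lists made within each genotype. In the test of the difference itself, the interaction of genotype and MCAO, 0 of 41 members passed (0.00217% of all genes did, in either direction) and 0 had an unadjusted p under 0.05 (3.31% of all genes). The smallest unadjusted p was 0.0767, for *Grid1*, whose change in *Cort*-/- minus that in *Cort*+/+ mice was −0.16 on the log2 scale (95% confidence interval −0.33 to 0.02). For *Hpca* this difference was −0.11 (−0.39 to 0.17), for *Gria1* −0.13 (−0.29 to 0.04), for *Camk2a* −0.07 (−0.28 to 0.14) and for *Nrgn* 0.06 (−0.20 to 0.32). The interaction was below 0 for 36 of 41 members, where 51.8% of all genes tested and 54.0% of those averaging 0.5 RPKM or more were. Its median was −0.09 for the members, against −0.0064 for all genes tested. The median was −0.053 without *Cort*-/- MCAO replicate 1 (31 members below 0) and also without *Cort*+/+ CL replicate 1 (29 members below 0).

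All 8 MCAO libraries lay below all 6 CL libraries for 7 members, namely *Gria2*, *Gria3*, *Grik2*, *Grid1*, *Camk2a*, *Nrgn* and *Hpca*, where 0.651% of all genes tested, and 1.64% of those averaging 0.5 RPKM or more, were separated in this direction. Within *Cort*+/+ mice the hemispheres did not overlap, with MCAO lower, for 12 members (4.11% of all genes, 6.86% of those averaging 0.5 RPKM or more), and within *Cort*-/- mice for 18 members (4.27% and 8.55%). *Grin3b* was separated in the other direction in *Cort*-/- mice (4.85% of all genes were).

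Among the AMPA receptor subunits, which form the pore of the fast glutamate receptors, 3 of 4 fell over both genotypes. *Gria1*, the most abundant of them, was at 96.9, 87.5 and 89.4 RPKM in *Cort*+/+ CL, 85.7, 86.6 and 82.9 RPKM in *Cort*+/+ MCAO, 94.8, 101 and 96.0 RPKM in *Cort*-/- CL, and 82.9, 88.9, 86.1, 77.1 and 81.3 RPKM in *Cort*-/- MCAO libraries. The hemispheres did not overlap within a genotype, although the lowest *Cort*+/+ CL library lay below the highest *Cort*-/- MCAO library. *Gria1* fell by 0.16 on the log2 scale over both genotypes (standard error 0.04, limma adjusted p = 0.0324) and by 0.23 in *Cort*-/- mice (standard error 0.05, limma adjusted p = 0.0423), and its log2 fold change was −0.10 in *Cort*+/+ mice (adjusted p = 0.751).

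*Gria2*, whose edited subunit makes the receptor nearly impermeable to calcium, was at 54.7, 60.3 and 60.7 RPKM in *Cort*+/+ CL and 52.1, 50.3 and 52.0 RPKM in *Cort*+/+ MCAO libraries. The *Cort*-/- libraries were at 60.8, 55.8 and 56.4 RPKM in CL and 42.8, 53.4, 53.8, 47.5 and 48.3 RPKM in MCAO libraries. All MCAO libraries were below all CL libraries, by a small gap between 53.8 and 54.7 RPKM, and *Gria2* fell by 0.21 over both genotypes (standard error 0.05, limma adjusted p = 0.0461).

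*Gria3* was at 44.6, 49.3 and 49.4 RPKM in *Cort*+/+ CL, 40.2, 41.4 and 42.3 RPKM in *Cort*+/+ MCAO, 49.7, 46.1 and 48.8 RPKM in *Cort*-/- CL, and 35.7, 42.2, 42.2, 41.1 and 41.7 RPKM in *Cort*-/- MCAO libraries. The lowest CL library was at 44.6 and the highest MCAO library at 42.3 RPKM, and *Gria3* fell by 0.23 over both genotypes (standard error 0.04, limma adjusted p = 0.0121). *Gria4*, the least abundant, ranged from 13.9 to 19.2 RPKM over all libraries, with overlapping hemispheres and a log2 fold change of −0.12 (adjusted p = 0.499).

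**Figure D2:**
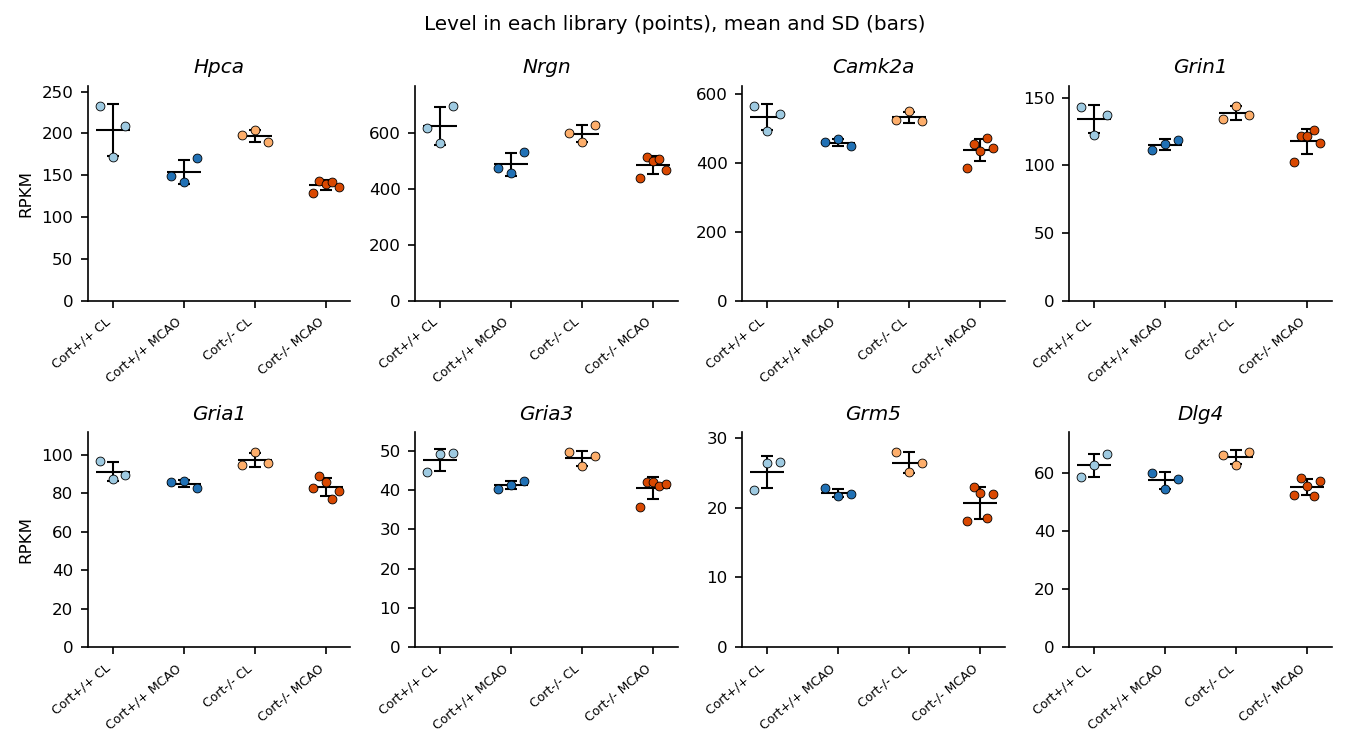
RPKM (y axis, from 0) of 8 called members in each library (points), by group (x axis), with the group mean and SD as bars. *Hpca* was at 129 to 144 RPKM in *Cort*-/- MCAO and 189 to 204 RPKM in *Cort*-/- CL libraries, and the MCAO points lie below the CL points of the same genotype except for *Grm5* and *Dlg4* in *Cort*+/+ mice.

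Of the 7 NMDA receptor subunits, 2 fell over both genotypes, the obligatory subunit and 1 of the regulatory subunits. *Grin1*, without which no NMDA receptor forms, was at 143, 123 and 137 RPKM in *Cort*+/+ CL, 111, 116 and 119 RPKM in *Cort*+/+ MCAO, 135, 144 and 137 RPKM in *Cort*-/- CL, and 102, 122, 122, 126 and 117 RPKM in *Cort*-/- MCAO libraries. The hemispheres did not overlap within a genotype, but *Cort*+/+ CL replicate 2 lay below the highest *Cort*-/- MCAO library. *Grin1* fell by 0.23 over both genotypes (standard error 0.05, limma adjusted p = 0.0265), with changes of nearly the same size in *Cort*+/+ (−0.22, adjusted p = 0.435) and *Cort*-/- mice (−0.24, adjusted p = 0.105).

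*Grin2a*, the regulatory subunit that becomes prominent as synapses mature, was at 12.3, 12.98 and 13.3 RPKM in *Cort*+/+ CL, 11.4, 12.0 and 11.8 RPKM in *Cort*+/+ MCAO, 14.7, 13.1 and 13.6 RPKM in *Cort*-/- CL, and 10.5, 12.5, 11.1, 12.5 and 11.1 RPKM in *Cort*-/- MCAO libraries. It fell by 0.20 over both genotypes (standard error 0.05, limma adjusted p = 0.0399). *Grin2b*, which was more abundant at 18.7 to 28.4 RPKM, had the same log2 fold change of −0.20 with more spread between libraries and was not called (adjusted p = 0.222). *Grin2c* (−0.17) and *Grin2d* (−0.15) were not called either. *Grin3a* had a log2 fold change of 0.06 in *Cort*+/+ and of −0.16 in the *Cort*-/- genotype, and *Grin3b* was near the limit of detection, with 10 to 26 reads and 0.0839 to 0.196 RPKM per library.

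Of the 5 kainate receptor subunits, *Grik2* fell. It was at 6.90, 7.71 and 7.49 RPKM in *Cort*+/+ CL, 6.87, 6.13 and 6.58 RPKM in *Cort*+/+ MCAO, 7.34, 7.37 and 7.00 RPKM in *Cort*-/- CL, and 5.73, 5.93, 6.36, 5.39 and 6.50 RPKM in *Cort*-/- MCAO libraries. The highest MCAO library (6.87 RPKM) was just below the lowest CL library (6.90 RPKM), and the fall over both genotypes was 0.22 (standard error 0.05, limma adjusted p = 0.0275).

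*Grik5*, an auxiliary high-affinity subunit that needs a partner such as *Grik2*, held most of the kainate receptor RNA. It was at 65.1, 59.7 and 62.8 RPKM in *Cort*+/+ CL, 60.9, 57.0 and 60.9 RPKM in *Cort*+/+ MCAO, 64.5, 65.4 and 68.3 RPKM in *Cort*-/- CL, and 59.1, 63.0, 58.2, 57.6 and 60.7 RPKM in *Cort*-/- MCAO libraries. The hemispheres overlapped in *Cort*+/+ mice and not in *Cort*-/- mice, and the log2 fold change over both genotypes was −0.11 (standard error 0.03, limma adjusted p = 0.103). *Grik1*, the least abundant, was at 3.59 to 4.50 RPKM, with a log2 fold change of −0.04. *Grik3* was low in a single library, *Cort*+/+ MCAO replicate 3, at 9.34 RPKM against 12.7 to 16.9 RPKM in the others.

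*Grid1*, a delta receptor subunit that bridges the synapse through adhesion rather than by opening to glutamate alone, was at 14.6, 14.1 and 14.3 RPKM in *Cort*+/+ CL and 12.9, 12.7 and 13.8 RPKM in *Cort*+/+ MCAO libraries. The *Cort*-/- libraries were at 14.8, 15.0 and 14.7 RPKM in CL and 11.3, 13.1, 13.1, 11.6 and 12.0 RPKM in MCAO libraries. All MCAO libraries lay below all CL libraries, and the CL libraries lay close together. *Grid1* fell by 0.20 over both genotypes (standard error 0.04, limma adjusted p = 0.0154) and by 0.28 in *Cort*-/- mice (standard error 0.05, limma adjusted p = 0.0235).

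Among the 6 metabotropic receptors, *Grm5* fell and the others were not called. *Grm5*, the postsynaptic Gq-coupled receptor tethered by Homer and Shank proteins, was at 22.5, 26.4 and 26.6 RPKM in *Cort*+/+ CL, 22.8, 21.6 and 21.9 RPKM in *Cort*+/+ MCAO, 27.98, 25.1 and 26.4 RPKM in *Cort*-/- CL, and 18.02, 23.0, 22.1, 18.5 and 21.9 RPKM in *Cort*-/- MCAO libraries. In *Cort*+/+ mice, CL replicate 1 lay within the MCAO range, and in *Cort*-/- mice the hemispheres did not overlap. *Grm5* fell by 0.27 over both genotypes (standard error 0.06, limma adjusted p = 0.0362).

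The receptors that inhibit adenylyl cyclase had a wide range of values. *Grm4*, a presynaptic receptor, had a log2 fold change of −0.31 over both genotypes with a standard error of 0.12 (limma adjusted p = 0.217). *Grm7*, also presynaptic, was at −0.17 and *Grm2* at −0.09. *Grm3*, which astrocytes also express, was at 14.8 to 20.6 RPKM in both hemispheres with a log2 fold change of 0.03 (standard error 0.09, limma adjusted p = 0.932), and *Grm8*, the least abundant, was at 3.30 to 4.59 RPKM with a log2 fold change of −0.07.

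Of the 14 scaffold proteins, *Dlg4* and *Dlgap3* fell over both genotypes and in *Cort*-/- mice, and 13 of 14 had a log2 fold change below 0 over both genotypes, with a class median of −0.12. *Dlg4* encodes PSD-95, which anchors NMDA receptors and, through auxiliary subunits, AMPA receptors. It was at 58.7, 63.0 and 66.5 RPKM in *Cort*+/+ CL, 60.2, 54.4 and 57.9 RPKM in *Cort*+/+ MCAO, 66.4, 62.9 and 67.3 RPKM in *Cort*-/- CL, and 52.5, 58.5, 55.6, 52.2 and 57.3 RPKM in *Cort*-/- MCAO libraries. The hemispheres overlapped in *Cort*+/+ mice and were apart in *Cort*-/- mice. *Dlg4* fell by 0.19 over both genotypes (standard error 0.04, limma adjusted p = 0.0241) and by 0.25 in *Cort*-/- mice (standard error 0.05, limma adjusted p = 0.0392).

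*Dlgap3*, which links PSD-95 to Shank proteins and is prominent in the striatum, was the most abundant scaffold transcript. It was at 73.9, 83.3 and 77.6 RPKM in *Cort*+/+ CL, 73.4, 66.6 and 68.4 RPKM in *Cort*+/+ MCAO, 88.3, 79.2 and 94.5 RPKM in *Cort*-/- CL, and 65.3, 75.8, 70.8, 66.1 and 73.6 RPKM in *Cort*-/- MCAO libraries. It fell by 0.24 over both genotypes (standard error 0.05, limma adjusted p = 0.02002) and by 0.31 in *Cort*-/- mice (standard error 0.07, limma adjusted p = 0.0384). Its paralogs were not called over both genotypes, with log2 fold changes of −0.09 for *Dlgap1*, −0.10 for *Dlgap2* and −0.12 for *Dlgap4*.

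*Shank3* had the second lowest log2 fold change of all 41 members over both genotypes, −0.34, but ranged from 22.9 to 42.8 RPKM and was not called (standard error 0.10, limma adjusted p = 0.0833). *Homer1*, whose long forms couple *Grm5* to calcium stores, ranged from 7.30 to 15.8 RPKM. It was at 7.90, 13.2 and 15.8 RPKM in *Cort*+/+ CL libraries alone, and its log2 fold change of −0.26 had a standard error of 0.17 (adjusted p = 0.544). *Dlg1* (−0.02) and *Homer3* (0.05), the least abundant scaffold at 4.41 to 6.09 RPKM, were near 0.

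All 4 calcium and calmodulin proteins fell over both genotypes, with a class median of −0.29, and they include the most abundant members and the called members of largest change. *Hpca* encodes hippocalcin, a neuronal calcium sensor, and lies on chromosome 4 of GRCm39 from 129005306 to 129015916 (minus strand). It was at 233, 171 and 208 RPKM in *Cort*+/+ CL, 149, 142 and 170.2 RPKM in *Cort*+/+ MCAO, 198, 204 and 189 RPKM in *Cort*-/- CL, and 129, 144, 139, 142 and 136 RPKM in *Cort*-/- MCAO libraries. The gap between hemispheres was narrow in *Cort*+/+ mice, where CL replicate 2 was close to MCAO replicate 4, and wide in *Cort*-/- mice. *Hpca* fell by 0.46 over both genotypes (95% confidence interval −0.60 to −0.32, limma adjusted p = 0.00283) and by 0.51 in *Cort*-/- mice (standard error 0.09, limma adjusted p = 0.0147), and its log2 fold change was −0.40 in *Cort*+/+ mice (adjusted p = 0.218).

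*Nrgn* encodes neurogranin, which holds calmodulin in the spine until calcium enters, and lies on chromosome 9 of GRCm39 from 37452275 to 37464689 (minus strand). It was at 617, 562 and 697 RPKM in *Cort*+/+ CL, 474, 455 and 532 RPKM in *Cort*+/+ MCAO, 598, 565 and 626 RPKM in *Cort*-/- CL, and 439, 514, 501, 507 and 465 RPKM in *Cort*-/- MCAO libraries. The groups were apart in both genotypes, and *Nrgn* fell by 0.33 over both (95% confidence interval −0.46 to −0.20, limma adjusted p = 0.00935). Within a genotype it was not called (−0.36, adjusted p = 0.250, and −0.30, adjusted p = 0.0877).

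*Camk2a* and *Camk2b* encode the alpha and beta subunits of the calmodulin-dependent kinase that phosphorylates AMPA receptors. *Camk2a* was at 566, 491 and 541 RPKM in *Cort*+/+ CL, 461, 468 and 448 RPKM in *Cort*+/+ MCAO, 525, 550.3 and 521 RPKM in *Cort*-/- CL, and 386, 453, 433, 471 and 443 RPKM in *Cort*-/- MCAO libraries. All MCAO libraries lay below all CL libraries, and *Camk2a* fell by 0.25 over both genotypes (standard error 0.05, limma adjusted p = 0.0138) and by 0.29 in *Cort*-/- mice (standard error 0.07, limma adjusted p = 0.0470).

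*Camk2b* was at 220.4, 200.4 and 225 RPKM in *Cort*+/+ CL, 194, 186 and 215 RPKM in *Cort*+/+ MCAO, 219.6, 227 and 215 RPKM in *Cort*-/- CL, and 176, 196, 198, 187 and 175 RPKM in *Cort*-/- MCAO libraries. The hemispheres overlapped in *Cort*+/+ and not in *Cort*-/- mice. It fell by 0.18 over both genotypes (standard error 0.05), with an adjusted p of 0.0491 by limma, just under the threshold.

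No member was called between the genotypes in either hemisphere, and all hemispheres came from operated animals. Between *Cort*-/- and *Cort*+/+ CL hemispheres 0 of 41 members were called by limma (0.0152% of all genes were, in either direction) and 0 had an unadjusted p under 0.05 (3.91% of all genes), with a median log2 fold change of 0.05 against 0.00 for all genes. The smallest unadjusted p was 0.0595, for *Dlgap3*, which was 0.16 higher in *Cort*-/- mice on the log2 scale. Between the MCAO hemispheres 0 of 41 were called (0.0174% of all genes) and 0 had an unadjusted p under 0.05 (3.82% of all genes), with a median of −0.03 against −0.0021. Neither median was stable. The CL median was 0.017 without *Cort*+/+ CL replicate 1, 0.030 without *Cort*-/- CL replicate 3 and 0.086 without *Cort*-/- CL replicate 2. The MCAO median was −0.00072 without *Cort*-/- MCAO replicate 1, between −0.049 and −0.053 without *Cort*-/- MCAO replicate 2, *Cort*-/- MCAO replicate 3 or *Cort*+/+ MCAO replicate 3, and 0.027 after rescaling to TPM, where 16 members were below 0 in place of 31. Voom on recovered reads and the other alternatives also gave 0 members in both comparisons. The groups did not overlap for *Grid1* in CL (higher in *Cort*-/- mice, as for 3.9% of all genes) and for *Grin3b* in MCAO hemispheres (higher in *Cort*-/- mice, as for 0.861%). These comparisons share libraries with those of the hemispheres.

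The log2 fold change between genotypes was above 0 for all 14 scaffold proteins in CL hemispheres, from 0.02 to 0.16, none of which was called, and below 0 for 10 of 14 in MCAO hemispheres. In the CL comparison, *Cort*+/+ CL replicate 1 was low for scaffolds such as *Shank1*, at 46.2 RPKM against 67.8 and 59.7 RPKM in the other *Cort*+/+ CL libraries. Without that library 9 of 14 scaffolds were above 0, with a median of 0.018 in place of 0.10, and *Dlg1*, *Dlg3*, *Dlgap2*, *Homer1* and *Shank1* were below 0. The median was 0.044 without *Cort*-/- CL replicate 3.

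The make-up of each receptor family was described as the share of each subunit in the summed RPKM of its family. *Gria1* held 40.5% to 47.3% and *Gria2* 24.4% to 27.9% of the AMPA receptor RNA across the 14 libraries, *Grin2b* 44.0% to 48.9% and *Grin2a* 21.7% to 27.6% of the *Grin2* RNA, and *Grik5* 64.2% to 69.9% of the kainate receptor RNA. *Camk2a* held 67.6% to 72.0% of the *Camk2a* and *Camk2b* RNA. In *Cort*+/+ mice the hemispheres overlapped for all 28 shares compared.

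The hemispheres of *Cort*-/- mice did not overlap for 6 of the 28 shares. *Grm5* made up 32.6% to 34.8% of the RNA of the 6 metabotropic receptors in CL and 29.0% to 31.6% in MCAO libraries, while *Grm3* made up 22.4% to 23.9% and 24.9% to 29.5%. *Dlg4* made up 37.7% to 38.5% of the Dlg RNA in CL and 35.5% to 36.8% in MCAO libraries, with *Dlg1*, *Dlg3* and *Grm8* shifted the other way. Each of these 6 had an exact two-sided permutation p of 0.0357, the smallest that 3 against 5 libraries can give, and an adjusted p of 0.167 over the 28 shares, so no share passed. For *Cort*+/+ mice, 3 against 3 libraries cannot give an exact two-sided permutation p under 0.1, so no share could pass, and the smallest was 0.200.

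Some partners of these receptors also fell, among lists of other genes of the same pathway. These lists were chosen with earlier results of these data known, so the share of all genes is no independent yardstick for their counts. Among AMPA and kainate receptor auxiliary subunits 3 of 14 fell over both genotypes and 0 rose, where 0.902% of all genes were called lower. Of the 17476 genes averaging 0.5 RPKM or more, 386 were called lower. The largest changes were in *Shisa7* (−0.30, limma adjusted p = 0.0330), an AMPA receptor auxiliary protein, and *Neto1* (−0.28, limma adjusted p = 0.0348), a partner of kainate and NMDA receptors. Among receptor trafficking and other postsynaptic density proteins 12 of 29 fell and 0 rose, beside the same shares. The largest changes were in both subunits of calcineurin, the calmodulin-dependent phosphatase, namely *Ppp3ca* (−0.39, limma adjusted p = 0.00405) and *Ppp3r1* (−0.32, limma adjusted p = 0.00586). The authors already list both genes as lower after MCAO in both genotypes.

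*Ppp3ca* ranged from 205 to 254 RPKM in CL and from 153 to 190.4 RPKM in MCAO libraries. Of 12 synaptic adhesion proteins 1 fell, *Nlgn2* (−0.12, limma adjusted p = 0.0460), which is known from inhibitory synapses, and of 6 glutamate transporters 0 were called in either direction. The counts lower in *Cort*-/- mice were 1 of 14 auxiliary subunits, 6 of 29 trafficking and density proteins and 0 of the adhesion proteins and transporters, and in *Cort*+/+ mice 0 in each of these 4 lists, with 0 higher in either genotype, where 0.382% and 0.00217% of all genes were called lower. Of the 17476 genes averaging 0.5 RPKM or more, 157 were called lower in *Cort*-/- and 0 in *Cort*+/+ mice.

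Markers of striatal neurons and of glia, in lists also chosen with earlier results of these data known, changed beside these genes. The summed RPKM of 12 general neuron markers ran from 2929 to 3570 in CL and from 2627 to 3107 in MCAO libraries, with 0 of 12 called over both genotypes and a median log2 fold change of −0.11. Markers of striatal spiny neurons summed to 425 to 478 RPKM in CL and 206 to 400.1 RPKM in MCAO libraries, and 9 of 9 fell, with a median of −0.76. Microglia and macrophage markers summed to 175 to 226 RPKM in CL and 255 to 570.0 RPKM in MCAO libraries, and 9 of 10 rose, while 4 of 8 astrocyte markers rose, with sums of 623 to 816 RPKM in CL and 759 to 1047 RPKM in MCAO libraries.

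Of the other lists, 0 of 7 markers of cortical excitatory neurons, 0 of 7 of hippocampal neurons, 0 of 6 of interneurons, 0 of 5 of thalamic and hindbrain neurons, 0 of 9 of cerebellar neurons, 0 of 7 of oligodendrocytes and 0 of 5 of red blood cells were called over both genotypes. Of the endothelial and mural cell markers 2 of 8 rose, and of the leukocyte markers 1 of 8. Defining markers of cerebellar granule and Purkinje cells (*Gabra6*, *Pcp2*, *Cbln3*) were at most 0.385, 0.221 and 0.558 RPKM in any library, and those of lymphocytes (*Ms4a1*, *Cd8a*, *Cd3e*) were at most 0.0523, 0.0306 and 0.0917 RPKM. The part of these markers in the lower receptor levels was not tested.

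**Figure D3:**
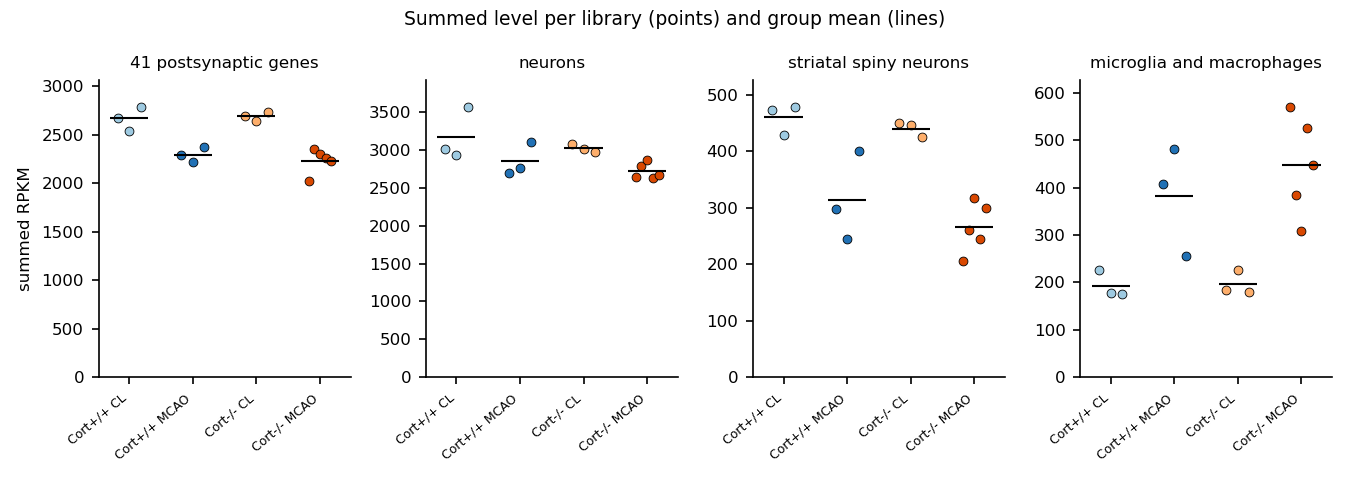
Summed RPKM (y axes, from 0) of the 41 genes and of the neuron, striatal spiny neuron and microglia and macrophage markers in each library (points), with group means as lines, by group (x axes). The striatal sum is 206 to 400.1 RPKM in MCAO and 425 to 478 RPKM in CL libraries, and the 41 genes sum to 2027 to 2373 RPKM in MCAO and 2542 to 2788 RPKM in CL libraries.

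When each library was centred on its mean log2 level of the 12 neuron markers, 2 of 41 members passed the test over both genotypes, *Hpca* (−0.35, limma adjusted p = 0.0142) and *Nrgn* (−0.22, limma adjusted p = 0.0278). The median of the members was then −0.061 against 0.11 for all genes, which centring shifted upwards. In *Cort*-/- mice 0 members were called after centring, with a median of −0.13, and in *Cort*+/+ mice 0 with a median of −0.0054. Since centring adds the same amount to every gene, members with a change near 0, none of them called, lie above 0 after it.

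**Figure D4:**
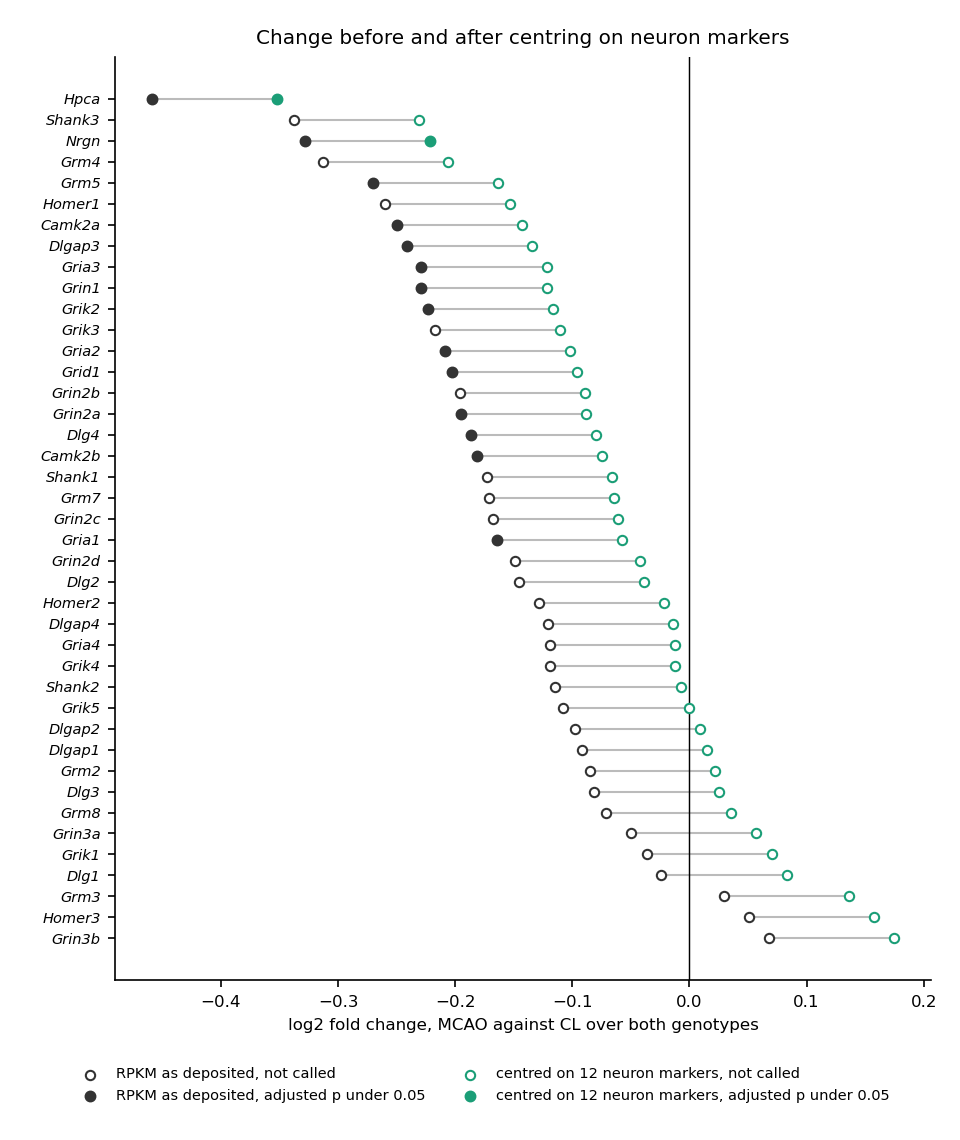
Log2 fold change of each of the 41 genes between MCAO and CL hemispheres over both genotypes (x axis), with RPKM as deposited (dark) and after centring each library on 12 neuron markers (green), with filled points where the adjusted p was under 0.05. Centring moved each gene to the right by the same amount, and *Hpca* at −0.35 and *Nrgn* at −0.22 are the filled green points.

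Some libraries were low across many members at once. *Cort*+/+ CL replicate 1 was the lowest of its group for 28 of 41 members and *Cort*-/- CL replicate 2 for 26, and *Cort*+/+ MCAO replicate 3 for 29 and *Cort*-/- MCAO replicate 1 for 27. *Cort*+/+ MCAO replicate 4 had a striatal sum of 400.1 RPKM, against 297 and 244 RPKM in the other *Cort*+/+ MCAO libraries, and microglia and macrophage markers at 255 RPKM, against 407 and 482 RPKM, both nearest to the CL range. With *Cort*+/+ CL replicate 1, *Cort*-/- CL replicate 2 and *Cort*+/+ MCAO replicate 4 left out together, a choice made after seeing the data, 6 members fell over both genotypes (*Gria3*, *Grm5*, *Dlg4*, *Dlgap3*, *Nrgn*, *Hpca*) and 2 in *Cort*-/- mice (*Dlgap3*, *Hpca*). The median log2 fold changes were then −0.20 and −0.24, and 40 and 38 of 41 members were below 0. This choice removed CL libraries that were low for most members and the MCAO library nearest to CL. The MCAO libraries that were low for most members stayed in. It therefore favours a larger fall, and the medians and counts below 0 add no support for one.

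**Figure D5:**
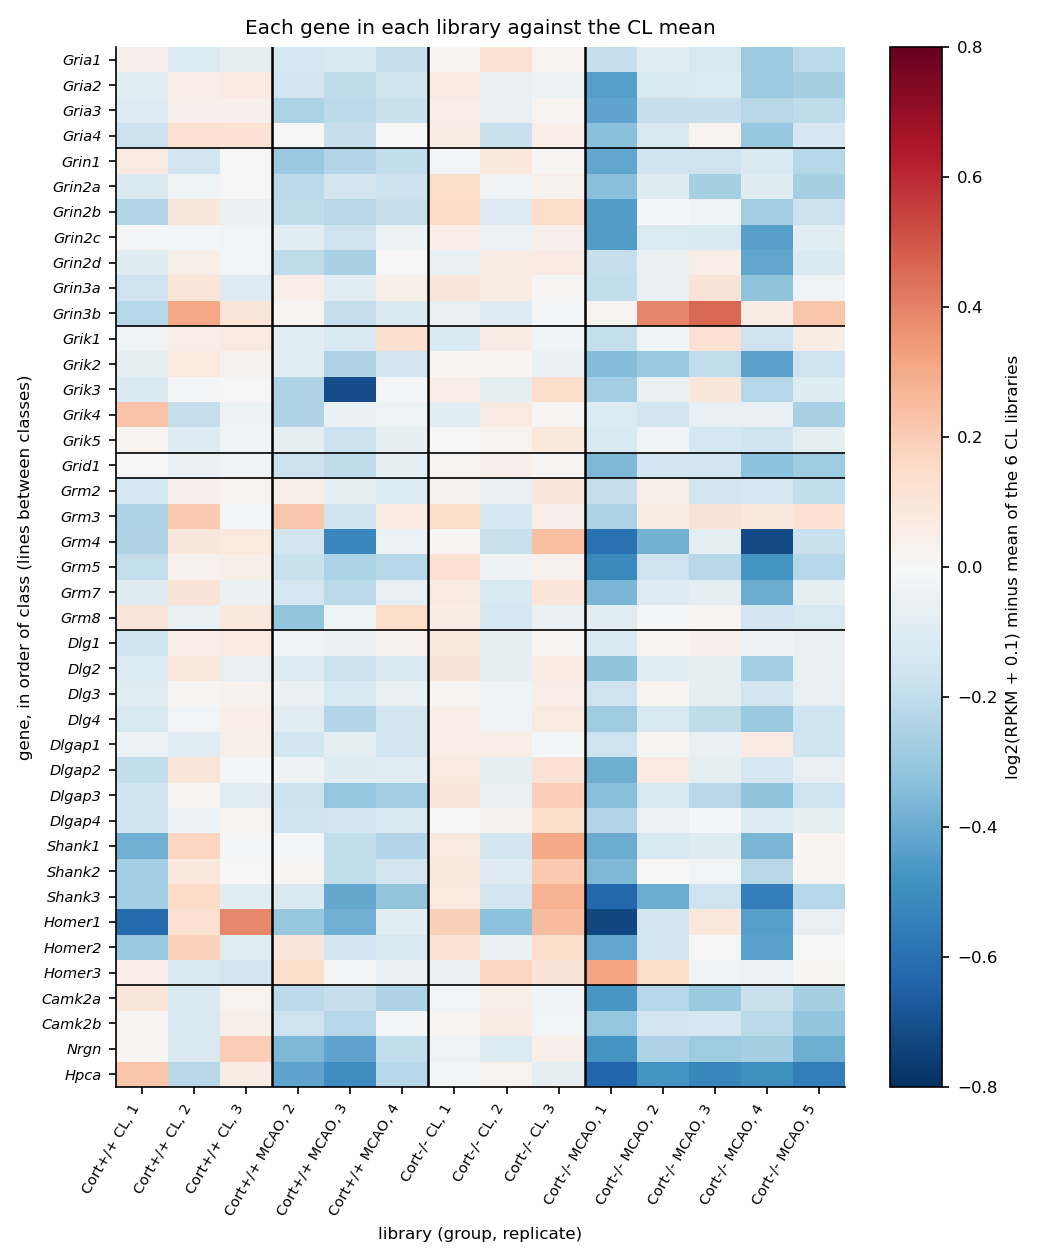
Level of each of the 41 genes (rows, in order of class) in each of the 14 libraries (columns) as log2(RPKM + 0.1) minus the mean of the 6 CL libraries of both genotypes, blue for lower and red for higher. The *Cort*-/- MCAO replicate 1 column is lowest of its group in 27 genes, and *Hpca* in the last row is below the CL mean in all 8 MCAO libraries.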

How the data were processed

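The authors aligned reads of stranded mRNA libraries to GRCm39 (the build in the submitters' processing notes) with the reanalyzerGSE pipeline, and deposited RPKM values per gene and library. Where replicates scattered, they used those that grouped clearly, which can lower the spread within groups. How library sizes were scaled is not given in the sources used here. RPKM weights each gene by its length and each library by a size, so a rise of some transcripts can lower the others. Because each value is a whole number of reads over a length and a library size, reads were recovered from the RPKM steps. All 495656 values above 0 came out whole (100% within 0.02 reads), with gene lengths from the annotation for 21697 genes and found by search for 25207, for which wholeness is a weaker check. Recovered totals were 25991115 to 43034552 reads per library.

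Of 46904 genes, the 46102 with a value over 0 in 2 or more of the 14 libraries entered a limma fit (version 3.58.1, R 4.3.3) of log2(RPKM + 0.1). All 4 groups shared the fit, prior variances followed mean expression, and p-values were adjusted over all genes by the Benjamini-Hochberg method. Fold changes are on that log scale. The comparison over both genotypes is the mean of both hemisphere contrasts. Shares of subunits were compared with exact permutation tests. The test was also run on simulated reads with the same scatter setting for all genes and no shifts of whole libraries. These settings are simpler than the data, so that run does not vouch for the calls here. Replicate numbers were not used as pairs. Of 5 same-numbered pairs within a genotype, 1 had correlated deviations (r −0.24 to 0.32 over 15063 genes), but so few pairs cannot exclude pairing. No batch is named in the labels.

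Members called in a comparison and the most abundant of each class are given in every library, the least abundant with their level, and the 2 largest called changes of each pathway list. The members and all lists were chosen with earlier results of these data known. Alternatives covered the scaling, the filter, the pseudocount, weights, the libraries and limma voom on recovered reads. Promoter windows are RefSeq's on GRCm38.p6 and gene positions GENCODE M39's on GRCm39, which were not combined.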

Additional observations from a re-analysis of the deposited data

Results flagged for a closer look

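In the only group large enough to be examined for single libraries that stand apart (*Cort*-/- MCAO, 5 libraries), 3 of 41 members had such a library, where chance gives about 1 in 20 for independent genes. The count is near that share. The members are also not independent, since *Cort*-/- MCAO replicate 1 was the lowest of its group for 27 of them. *Gria3* was at 35.7 RPKM in replicate 1, against 41.1 to 42.2 RPKM in the others, and *Grm3* was at 14.8 RPKM in replicate 1, against 18.5 to 19.2 RPKM in the others. *Grm2* was at 9.13 RPKM in replicate 2, against 7.72 to 8.06 RPKM in the others. Without *Cort*-/- MCAO replicate 1, *Gria3* was still called over both genotypes.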

How the results depend on the processing

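The direction of each member called over both genotypes or in *Cort*-/- mice was the same under all alternatives run, while the counts of called members changed. Over both genotypes the count of 14 was 5 after rescaling to TPM, 2 after centring on neuron markers, 6 without the 3 libraries that stand apart, and 5 to 13 when 1 library was left out. In *Cort*-/- mice the count of 6 was 1 when the fit held no other group, 14 with a mean of at least 0.5 RPKM, 1 after rescaling to TPM, 0 after centring on neuron markers, 10 with library weights, 12 with voom on recovered reads (12 also with the filter on mean RPKM, a choice made after seeing the data), 2 without the 3 libraries, and 0 to 9 when 1 library was left out. In *Cort*+/+ mice the count of 0 was 1 with voom on recovered reads and 0 to 1 when 1 library was left out. Centring on neuron markers moved the median log2 fold change to −0.0054 in *Cort*+/+ mice, −0.13 in *Cort*-/- mice and −0.061 over both. The causes of these changes were not tested.

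With the replicate number as a block, 0 members were called over both genotypes and 0 in *Cort*-/- mice, at 21 and 17 members lower at an unadjusted p under 0.05. In a check of 5 same-numbered pairs within a genotype, 2 of 10 libraries correlated best with their own number. So few pairs cannot show or exclude pairing, and whether same-numbered hemispheres came from the same mouse is not stated. The hemisphere changes under the block rest on these pairs alone. The interaction median was −0.053 with the block, with 26 members below 0. The genotype comparisons and the interaction gave 0 members under all alternatives. Depth limits *Grin3b*, at 10 to 26 reads per library, and not the other members.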
